A study of Rattus norvegicus with 10 samples.

Results

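The Notch receptors, their ligands and their Hes and Hey target genes were followed in 5 cultures of HSC-2, an established hepatic stellate cell line of the Wistar rat, here called lines. The genes were Jag1 and Jag2, Notch1, Notch2 and Notch3, Lfng and Numb, and Hes1, Hey1 and Hey2. All probe sets annotated with exactly 1 of these symbols were taken, whatever their values, which gave 12 probe sets for 10 genes of the 14217 genes that the array measured through such probe sets. Notch1 and Numb had 2 probe sets each and the other genes 1. The lines were untransfected HSC-2, HSC-2 transfected with a scrambled control sequence, and the clones S1, S4 and S5, which were transfected to overexpress rno-miR-146a. All 5 lines grew in high-glucose medium with serum and antibiotics, and each was sampled at passages 42 and 43, which gave 10 Affymetrix arrays. Each miR-146a line is 1 clone, and the sources used here do not give the promoter or the vector. Mature miR-146a was not analysed here.

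Notch signalling passes between touching cells. A Jagged or Delta ligand on one cell binds a Notch receptor on its neighbour, which is then cut by an ADAM protease and by gamma-secretase. The freed intracellular domain enters the nucleus, joins the DNA-binding protein Rbpj and the Mastermind coactivators, and switches on genes of the Hes and Hey families, which encode transcriptional repressors. In the liver, Jag1 and Notch2 are known for bile duct formation, and in stellate cells Notch signalling has been tied to the change from the retinoid-storing to the matrix-producing state. Stellate cells can also take on features of vascular pericytes, in which Jag1, Notch3 and the Hey genes are known to act.

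The sequences below show the microRNA that the clones were transfected to overexpress and the letters that Rbpj is known to bind. The mature strand of the microRNA lies at chr10:28350053-28350074 on the minus strand of the rat assembly GRCr8 (RefSeq), and the capitals mark its seed, bases 2 to 8.
rno-miR-146a-5p: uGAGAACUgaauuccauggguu

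Promoter windows of 250 bases before the annotated start were found in RefSeq's table for 9 of the 10 genes, with 2 starts for Jag2. Hey1 had no window there and was not searched. They were searched on both strands for GTGGGAA, the core of the Rbpj site, and for the shorter TGGGAA that lies inside it. GTGGGAA was present in 3 of the 10 windows, those of Hes1, Hey2 and Lfng, and in 5.27% of all 33469 rat windows of this length. TGGGAA was present in the same 3 windows, with 2 matches in each, and in 22.1% of all windows (2 or more matches in 2.71%). In Hes1, GTGGGAA lay 124 to 118 bases before the start and a separate TGGGAA lay 109 to 104 bases before it, on the same strand. In Hey2, GTGGGAA lay 61 to 55 bases before the start and the reverse complement of TGGGAA 175 to 170 bases before it. In Lfng, these matches lay 124 to 118 and 150 to 145 bases before the start. Jag1, whose level differed most widely between the lines after that of Hey2, had neither set of letters in this window. The windows of Hes1, Hey2, Lfng and Jag1 are printed in the direction of transcription with the matches in capitals, on GRCr8 at chr11:84213046-84213295 (minus strand), chr1:28640850-28641099 (plus strand), chr12:19152919-19153168 (minus strand) and chr3:144894884-144895133 (minus strand). A match is a description of the letters and not a measured binding site.
Hes1: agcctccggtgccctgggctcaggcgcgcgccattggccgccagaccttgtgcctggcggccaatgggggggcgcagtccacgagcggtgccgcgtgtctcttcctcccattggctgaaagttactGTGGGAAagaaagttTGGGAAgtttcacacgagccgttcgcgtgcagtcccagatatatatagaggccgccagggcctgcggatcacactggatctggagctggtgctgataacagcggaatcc
Hey2: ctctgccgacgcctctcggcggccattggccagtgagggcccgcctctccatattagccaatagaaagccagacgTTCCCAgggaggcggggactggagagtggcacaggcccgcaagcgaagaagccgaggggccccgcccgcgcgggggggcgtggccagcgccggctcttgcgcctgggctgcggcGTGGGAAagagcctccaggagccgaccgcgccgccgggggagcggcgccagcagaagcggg
Lfng: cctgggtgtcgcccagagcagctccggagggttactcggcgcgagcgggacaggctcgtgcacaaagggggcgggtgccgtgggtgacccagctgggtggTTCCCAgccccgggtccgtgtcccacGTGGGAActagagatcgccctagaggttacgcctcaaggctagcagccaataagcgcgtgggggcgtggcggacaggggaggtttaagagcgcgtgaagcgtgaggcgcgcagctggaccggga
Jag1: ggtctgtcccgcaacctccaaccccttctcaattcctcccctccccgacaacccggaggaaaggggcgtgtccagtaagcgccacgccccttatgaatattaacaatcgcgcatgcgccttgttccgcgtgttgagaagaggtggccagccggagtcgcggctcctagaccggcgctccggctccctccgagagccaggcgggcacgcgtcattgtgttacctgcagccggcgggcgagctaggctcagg

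The deposited values were intensities on a linear scale with a floor of 20, and array medians lay between 97.7 and 103.7 intensity units. Of 31099 probe sets, 27520 were tested, and all 12 probe sets of the Notch genes were among them, above the floor on all 10 arrays. Several of the 12 were dim all the same. The mean log2 values of the Notch1, Notch2, Notch3 and Lfng probe sets lay at percentiles 43 to 48.2 of the array. Those of Hey1 and Jag2 lay at 30.3 and 25.7. Whether signals at these levels come from the named transcripts was not tested. The labels do not say whether the 2 passages of a line came from separate cultures or transfections, so a p-value between single lines rests on the spread between 2 passages of a line and may reflect technical spread alone. The titles of both untransfected arrays, and of no other array, carry the words replicate 2, and the labels do not explain them. The stellate and fibroblast markers Vim, Col1a1, Col3a1, Acta2, Tagln and Pdgfrb were bright on all arrays. Lrat, a retinoid enzyme of resting stellate cells, was at the floor on all 10. Gfap and Des were dim, as were Reln (30.0 to 41.5) and Ngfr (20 to 23.9). The biliary markers Epcam and Cldn4 were at the floor on all 10 arrays, Krt19 did not exceed 23.9 and Cftr 21.8. The leukocyte marker Ptprc did not exceed 21.04, the endothelial marker Pecam1 29.6 and the hepatocyte marker Alb 38.4. Other markers on these lists were brighter, among them Egfl7 (316 to 421) and Tek (99.8 to 198) of endothelium, Ttr (149.9 to 207) of hepatocytes and Clec4f (98.7 to 111) of macrophages. The summed intensity was 611 to 744 for the 8 measured endothelial, 304 to 376 for the 7 leukocyte and 377 to 435 for the 8 hepatocyte markers, and Lyve1, Cd163 and Cps1 were at the floor on all arrays. The part of these markers in the Notch results was not tested.

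The untransfected line stood apart in most of these genes. Both untransfected arrays lay above the other 8 arrays in 7 of the 12 probe sets, those of Jag1, Notch1 (both), Notch3, Hes1, Hey1 and Hey2, a pattern found in 9.3% of all tested probe sets. They lay below the other 8 in Notch2 and in 1 Numb probe set, a pattern found in 7.18% of all. Both scrambled arrays lay below the other 8 in 2 of the 12 (7.97% of all) and above them in 0 (7.21%). Set against the untransfected line, the scrambled line had 7 of the 12 probe sets lower and 0 higher by limma (adjusted p under 0.05), while 3.87% of all tested probe sets were lower and 2.23% higher, 6.1% in all. Its median log2 difference over the 12 was -0.74, beside 0 over all tested. Fewer cells of a kind and less RNA per cell cannot be told apart in these bulk samples.

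The clones, too, had more of the 12 lower than higher when set against the untransfected line. In S1, 5 were lower and 1 higher (2.32% and 2.06% of all tested, 4.38% in all). In S4, 6 were lower and 2 higher (1.71% and 1.82%, 3.52% in all). In S5, 5 were lower and 1 higher (1.95% and 1.68%, 3.63% in all). The medians over the 12 were -0.50, -0.48 and -0.52, beside -0.01, -0.0001 and -0.0048 over all tested probe sets. With the scrambled line as control, S1 and S5 each had 2 of the 12 higher and 0 lower (2.38% and 1.81% of all tested, 4.19% in all, for S1, and 1.99% and 1.45%, 3.44% in all, for S5). S4 had 0 of the 12 called by limma against the scrambled line, where 3.64% of all tested probe sets were called (2.27% higher and 1.37% lower). With the replicate block on passage, 0 of the 12 were called as well. At an unadjusted limma p under 0.05 there were 5 of the 12, beside 12 of the 49 other pathway genes described below. The share of all tested probe sets at that unadjusted level is not given here. None of the 12 was called the same way against both control lines in S1, S4 or S5 (1.36%, 1.19% and 0.999% of all tested). The comparisons with the same control line share its 2 arrays. Where only the 4 arrays of the lines compared were fitted, 0 of the 12 passed in any of these 7 comparisons, and 0 to 13 probe sets passed over the whole array.

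**Figure D1:**
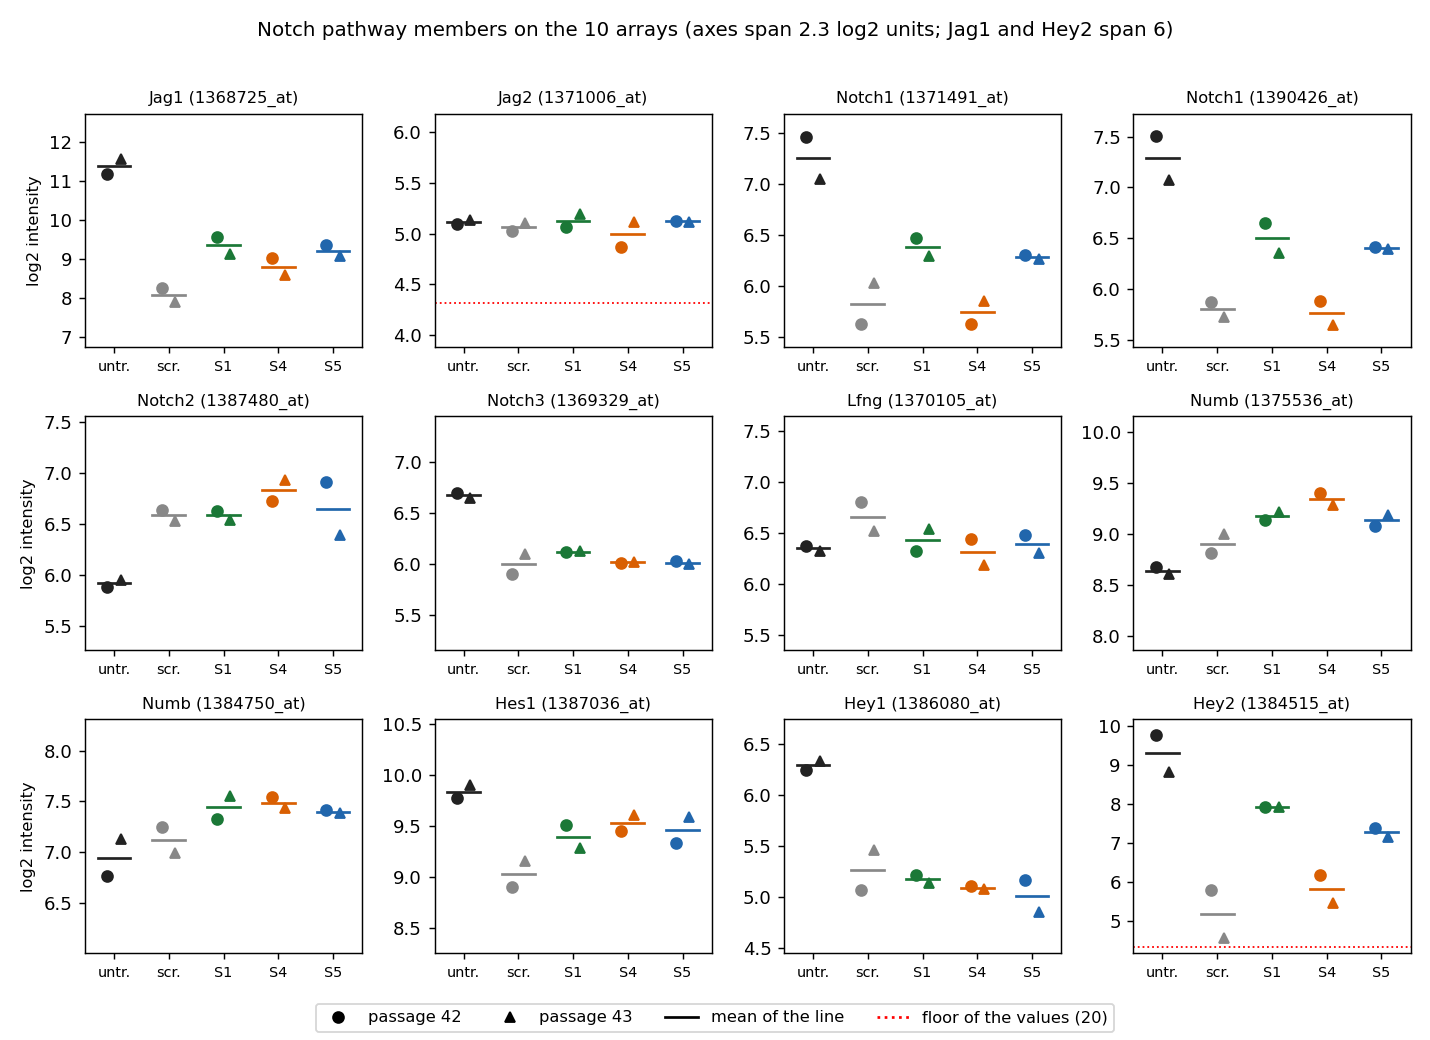
Log2 intensity (y axis) of each of the 12 probe sets in the 5 lines (x axis, untr. for untransfected and scr. for scrambled). Circles are passage 42, triangles passage 43, horizontal bars the mean of the line, and the dotted line the floor of the deposited values. The untransfected arrays stand above the other 8 in 7 panels and below them in the panels of Notch2 and of Numb 1375536_at.

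**Figure D2:**
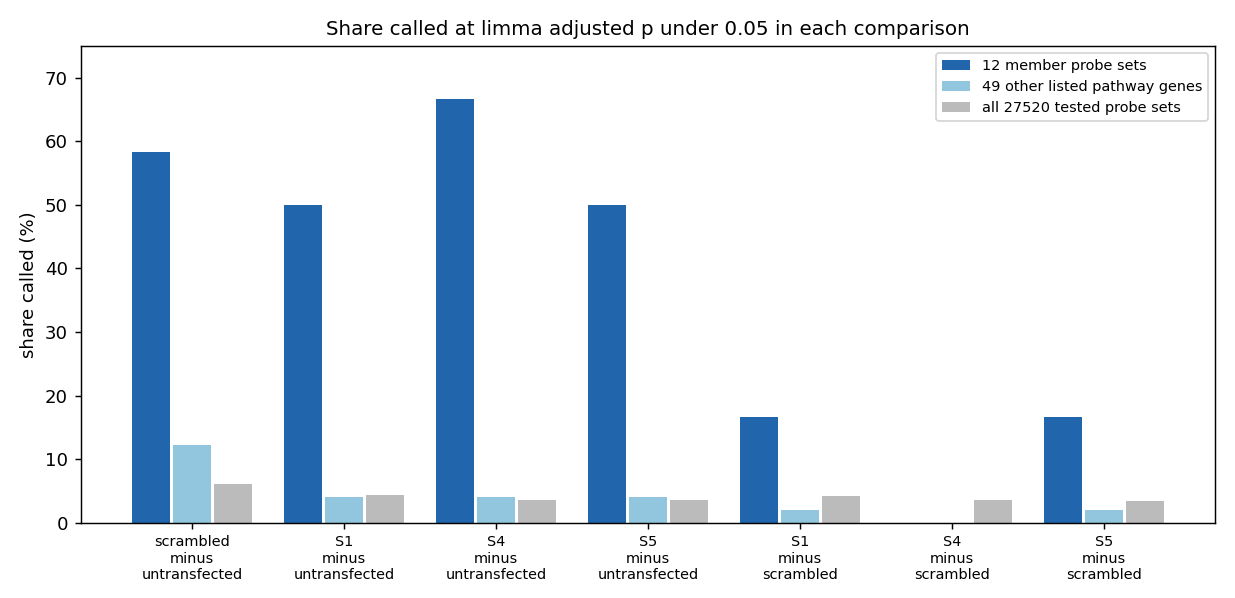
Share of probe sets or genes called at limma adjusted p under 0.05 (y axis, percent) in each of the 7 comparisons between single lines (x axis), for the 12 member probe sets of the Notch genes, the 49 other listed genes of the pathway and all 27520 tested probe sets. The share of the 12 was 50% to 66.7% in comparisons with the untransfected line and 0% to 16.7% in those with the scrambled line.

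Jag1, a membrane ligand of the Notch receptors, was at 2318 and 3041 intensity units in the untransfected line at passages 42 and 43. In the scrambled line it was at 307 and 236. The clones were at 758 and 561 (S1), 523 and 381 (S4) and 653 and 534 (S5), so that all 6 clone arrays lay below both untransfected and above both scrambled arrays, a pattern found in 1.42% of all tested probe sets. The order of the line means was untransfected, S1, S5, S4, scrambled, and S1 and S5 overlapped while the other neighbours did not. The log2 difference of the scrambled from the untransfected line was -3.30, a level 9.86-fold lower (SE 0.24, 95% interval -3.85 to -2.75, limma adjusted p = 0.000589).

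Jag1 fell in every clone against the untransfected line, with log2 differences of -2.03 in S1, -2.57 in S4 and -2.17 in S5 (SE 0.24, limma adjusted p = 0.00424, 0.00156 and 0.00356). Against the scrambled line it rose by 1.28 in S1 and 1.13 in S5 (limma adjusted p = 0.0264 and 0.0463) and was at 0.73 in S4 (95% interval 0.18 to 1.28, limma adjusted p = 0.176). Jag1 was therefore called in opposite directions in S1 and S5, depending on the control line. This held for 0.105% of all tested probe sets in S1, 0.04% in S4 and 0.102% in S5, and of the 12 for Jag1, in S1 and S5. With the replicate block it held in S1 and S5 for Hey2 and Notch1 (1390426_at) as well. The block fit called more probe sets over the whole array, and the share of all tested called in opposite directions in it is not given here. The falls in S1 and S5 missed the threshold without the untransfected array of passage 43 (adjusted p = 0.0544 and 0.0510) and without passage 43 of the clone itself (0.0531 and 0.0559). The rise in S1 missed it without either array of the scrambled line, S1 or S5 (adjusted p = 0.0585 to 0.169) and the rise in S5 without any 1 of the 10 arrays (up to 0.264). Both rises also missed it with no filter on floor values (adjusted p = 0.0959 and 0.134), and that in S5 with log2(value + 16) (0.0575). The fall of the scrambled line and that of S4 passed without each of the 10 arrays in turn.

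Jag2, the other Jagged ligand measured, passed in no comparison by limma. Its 10 values lay between 29.2 and 36.5 intensity units, near the floor, and the line means spanned 0.13 on the log2 scale. Neighbouring lines in the order of means overlapped, while both S5 arrays lay above both scrambled arrays. The 95% intervals of the clones against either control line reached from -0.38 to 0.32.

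Notch1, a receptor with its own probe sets 1371491_at and 1390426_at, was highest in the untransfected line in both. By 1371491_at it was at 177 and 132 intensity units there, 49.4 and 65.1 in the scrambled line, and 88.8 and 78.3 (S1), 49.5 and 57.8 (S4) and 78.8 and 76.8 (S5) in the clones. By 1390426_at the values were 182 and 135 (untransfected), 58.7 and 53.02 (scrambled), 100.7 and 81.7 (S1), 58.9 and 49.99 (S4), and 85.2 and 84.3 (S5). Both placed the lines in the order untransfected, S1, S5, scrambled, S4. S1 and S5 overlapped, as did the scrambled line and S4, and both of the former lay above both of the latter.

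Notch1 fell in the scrambled line against the untransfected line, with log2 differences of -1.43 and -1.49 in the respective probe sets (SE 0.18 and 0.17, limma adjusted p = 0.00557 and 0.00383). S4 was at -1.52 and -1.53 (limma adjusted p = 0.00478 and 0.00360), S1 at -0.88 and -0.79 (0.0402 and 0.0468) and S5 at -0.98 and -0.89 (0.0316 and 0.0359). No clone passed against the scrambled line. The highest differences were those of 1390426_at, at 0.70 in S1 (95% interval 0.30 to 1.10, limma adjusted p = 0.0708) and 0.60 in S5 (limma adjusted p = 0.125), and these passed with the replicate block (adjusted p = 0.0132 and 0.0258). The calls of S1 and S5 against the untransfected line were lost in 1390426_at without any 1 of the 10 arrays (adjusted p up to 0.307 and 0.194) and in 1371491_at without any array other than the scrambled ones (up to 0.273 and 0.185). That of S4 in 1371491_at was lost without S4 passage 42 (adjusted p = 0.0583). Quantile normalization ended both Notch1 calls of S1 (adjusted p = 0.0518 and 0.0692) and that of S5 in 1390426_at (0.0502), and no filter on floor values ended all 4 calls of S1 and S5 (0.0874 to 0.108).

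Notch2, the receptor known for bile duct formation, went the other way. It was at 59.1 and 62.1 intensity units in the untransfected line, 99.7 and 92.5 in the scrambled line, and 99.3 and 93.1 (S1), 106 and 122 (S4) and 121 and 83.8 (S5) in the clones. Both untransfected arrays lay below the other 8. S1 and S5 overlapped the scrambled line, while both S4 arrays lay above it. S4 was higher than the untransfected line by 0.91 (SE 0.17, limma adjusted p = 0.0291). S1, S5 and the scrambled line were at 0.67, 0.73 and 0.67 (limma adjusted p = 0.0737, 0.0606 and 0.0622), of which S5 and the scrambled line passed with the replicate block (adjusted p = 0.0420 and 0.0417). The call of S4 was lost without any 1 of 8 arrays, all but those of S5 (adjusted p up to 0.207), and with no filter on floor values (0.0850).

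Notch3, the receptor of vascular smooth muscle and pericytes, showed a step between the untransfected line and the rest. It was at 103.7 and 100.3 intensity units in the untransfected line and between 59.9 and 69.7 on the other 8 arrays. Its differences from the untransfected line were -0.67 in the scrambled line, -0.55 in S1, -0.66 in S4 and -0.66 in S5 (SE 0.10, limma adjusted p = 0.00907, 0.0224, 0.0122 and 0.0126). The clones differed from the scrambled line by 0.01 to 0.12, with 95% intervals from -0.21 to 0.35. Each clone's call was lost when either of its arrays was left out and, in S1 and S5, without the untransfected array of passage 43 (adjusted p up to 0.159), while that of the scrambled line passed without each array.

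Lfng, the Fringe glycosyltransferase that adds sugars to Notch receptors and changes their choice of ligand, passed in no comparison. Its 10 values lay between 73.0 and 112 intensity units, and each line overlapped its neighbour in the order scrambled, S1, S5, untransfected, S4. The clones were at -0.34 to -0.23 against the scrambled line (limma adjusted p = 0.312 to 0.544) and at -0.03 to 0.08 against the untransfected line. Its promoter window, printed above, holds the same GTGGGAA as those of Hes1 and Hey2.

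Numb, an adaptor protein that binds Notch and lowers its signalling, was the gene of the 10 in which all 6 clone arrays lay above all 4 control arrays, and it did so in both probe sets. This pattern was found in 4.06% of all tested probe sets, and the reverse, found in 3.44% of all, in 0 of the 12. By 1375536_at it was at 408 and 389.9 intensity units in the untransfected line, 450.1 and 511 in the scrambled line, and 563 and 594 (S1), 677 and 623 (S4) and 542 and 582 (S5) in the clones. By 1384750_at the values were 109 and 139.95 (untransfected), 152 and 127 (scrambled), 161 and 188 (S1), 187 and 173 (S4), and 171 and 167 (S5). The 2 control lines overlapped in 1384750_at and not in 1375536_at.

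Against the untransfected line, Numb 1375536_at rose by 0.54 in S1, 0.70 in S4 and 0.49 in S5 (limma adjusted p = 0.0344, 0.0134 and 0.0492). Its other probe set was at 0.49, 0.54 and 0.45 with a wider error (SE 0.15, limma adjusted p = 0.116 to 0.161). With the scrambled line as control the differences were 0.23 to 0.44 and 0.28 to 0.37 in the respective probe sets, and 0 of these 6 passed (lowest limma adjusted p = 0.0746, for S4). The calls of S1 and S5 were lost without 7 and 8 of the 10 arrays in turn, those of the clones and the untransfected line, except that S1 kept its call without untransfected passage 42 (adjusted p up to 0.242). That of S4 was lost without either array of its own or untransfected passage 43 (up to 0.0964). The call of S5 was also lost with a filter on mean log2 values of at least 6 (adjusted p = 0.0578), with no filter (0.0559) and with an intensity trend (0.0676).

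Hes1, a repressor and early target of Notch, was at 876 and 956 intensity units in the untransfected line and at 477 and 569 in the scrambled line. The clones lay between these, at 727 and 623 (S1), 699.9 and 782 (S4) and 645 and 772 (S5), overlapping one another but neither control line. Hes1 and Jag1 were the only 2 of the 12 probe sets with all clone arrays between the control lines in this way, and 0 of the 12 had them between in the opposite order (0.694% of all tested). The log2 difference of the scrambled from the untransfected line was -0.81 (SE 0.15, limma adjusted p = 0.0193). The clones were at -0.44 to -0.31 against the untransfected line (limma adjusted p = 0.142 to 0.329) and at 0.37 to 0.51 against the scrambled line (limma adjusted p = 0.124 to 0.260), and none passed. The call of the scrambled line was lost without untransfected passage 43 or scrambled passage 42 (adjusted p = 0.106 and 0.105).

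Hey1, a repressor that acts below Notch in vessels, showed a step like that of Notch3. It was at 76.1 and 80.9 intensity units in the untransfected line and between 28.8 and 43.9 on the other 8 arrays, near the floor of 20. Its log2 differences from the untransfected line were -1.03 in the scrambled line, -1.12 in S1, -1.20 in S4 and -1.29 in S5 (SE 0.15, limma adjusted p = 0.0104, 0.00842, 0.00628 and 0.00523). Between the clones and the scrambled line the differences were -0.26 to -0.09 (limma adjusted p = 0.514 to 0.876). The call of the scrambled line was lost without untransfected passage 43 or scrambled passage 42 (adjusted p = 0.0715 and 0.0523). Those of the clones were lost without untransfected passage 43 and without their own arrays, except that S5 kept its call without its array of passage 42 (up to 0.0957).

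Hey2, the related repressor known from arterial and cardiac development, had the widest range of the 12 probe sets, 4.13 on the log2 scale between line means. It was at 877 and 455 intensity units in the untransfected line and at 55.1 and 23.7 in the scrambled line, the latter near the floor. S1 was at 245 and 244, S5 at 168 and 143, and S4 at 72.8 and 43.8. The order was untransfected, S1, S5, S4, scrambled, as for Jag1, and S4 overlapped the scrambled line while the other neighbours did not overlap. The 2 passages of a line differed by up to 1.22, in the scrambled line.

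The log2 difference of Hey2 between the scrambled and the untransfected line was -4.13 (17.5-fold lower, SE 0.44, limma adjusted p = 0.00277), and this was the 13th largest difference of 27520 in that comparison. S4 was at -3.48, or 11.2-fold lower (limma adjusted p = 0.00610). S1 and S5 were at -1.37 and -2.02 (limma adjusted p = 0.137 and 0.0513) and passed with the replicate block (0.0263 and 0.00759). Hey2 rose against the scrambled line by 2.76 in S1, or 6.77-fold, and by 2.10 in S5, or 4.30-fold (limma adjusted p = 0.0147 and 0.0463), and was at 0.64 in S4 (95% interval -0.38 to 1.67, limma adjusted p = 0.572). The range between the 3 clones, 2.11, was the 17th largest of all tested probe sets, and by the limma F test it did not pass (adjusted p = 0.868). The call of S4 was lost without S4 passage 43 (adjusted p = 0.0730), that of S1 without either S1 array or scrambled passage 43 (0.0874 to 0.128), and that of S5 without any array but scrambled passage 42 (up to 0.250). Both calls against the scrambled line were lost with no filter on floor values (adjusted p = 0.0752 and 0.147), and that of S5 with log2(value + 16) (0.0612).

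**Figure D3:**
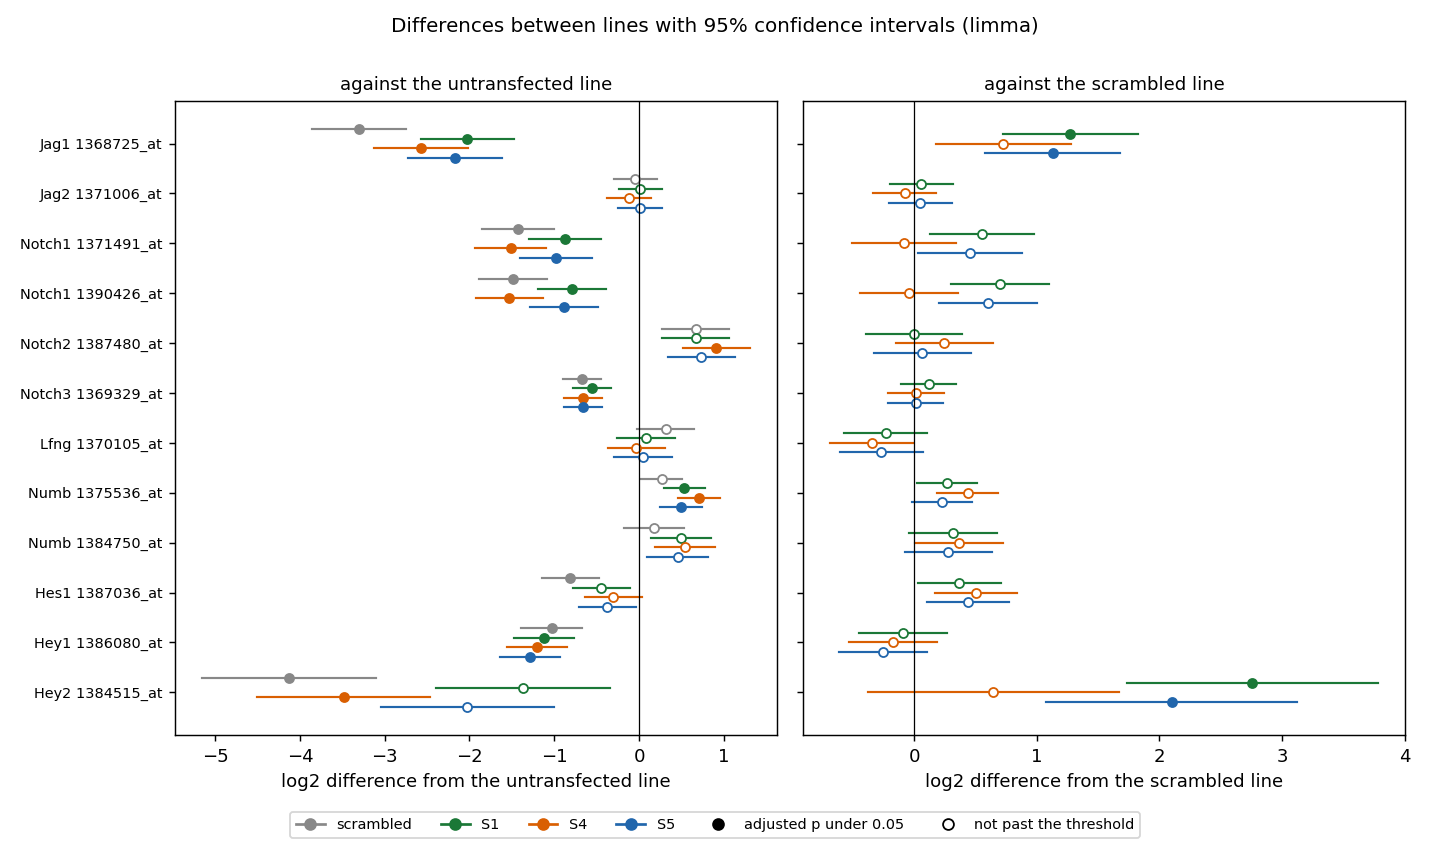
Log2 difference of each line from the untransfected line (left) and of each clone from the scrambled line (right) for the 12 probe sets (y axis), with 95% confidence intervals from limma. Filled points passed at adjusted p under 0.05. Jag1 in S1 and S5 is filled on the left below 0 and on the right above 0, and Hey2 has the widest intervals.

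Correlations across the 10 arrays, which fall into 5 lines and are not independent, are given as a description. The 7 probe sets highest in the untransfected line share that pattern, which enters their correlations. Among them Pearson's r of log2 values ranged from 0.58 between Hey1 and Hes1 to 0.96 between Notch3 and Hey1. It was 0.61 between Hey2 and Hey1, 0.64 between Hey2 and Hes1, 0.96 between Hey2 and Notch1 (1390426_at), 0.92 between Jag1 and the same Notch1 probe set and 0.90 between Jag1 and Hey2. The 2 Notch1 probe sets correlated at 0.95 and the 2 Numb probe sets at 0.80. Notch2 ran against Notch3 (r = -0.87) and Hey1 (r = -0.82), and Lfng against Hes1 (r = -0.85). Among all other named genes, those most like Hey2 were Magi1, Notch1, Smarcd3, Fhl1 and Syne1 (r = 0.96, 0.96, 0.94, 0.93 and 0.93). Those most like Jag1 were Pvt1, Adarb1, Ehd4, Ccdc71l and Sin3b (r = 0.99, 0.98, 0.98, 0.97 and 0.97).

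Acta2 and Tagln, markers of contractile stellate cells, were lowest in the scrambled line. Acta2, smooth muscle actin, was at 7715 and 9626 intensity units in the untransfected line, 1124 and 1195 in the scrambled line and 4682 to 6834 in the clones. Tagln, the actin-binding transgelin, was at 16142 and 17535, 4435 and 3588, and 10130 to 18208 in the same groups, so that clone and untransfected arrays overlapped. The summed intensity of the 12 stellate and fibroblast markers was 91804 to 97567 in the untransfected line, 66647 to 69279 in the scrambled line and 79532 to 87915 in the clones. Acta2 and Tagln are among these 12, so the sum is not separate from them. Other bright markers of the 12 varied less over the 10 arrays. Vim lay between 21124 and 24794, Col1a1 between 17936 and 24084, Col3a1 between 18029 and 22207 and Pdgfrb between 720 and 1666. Values by line are given here for Acta2 and Tagln only, so a lower level in the scrambled line is not shown for the list as a whole. The 7 measured biliary markers summed to 2761 to 3391, 1501 to 1657 and 1721 to 4885, and their brightest member was Spp1, which stellate cells also express. The part of these differences between lines in the Notch results was not tested.

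When the line was taken as the replicate, with 3 clone means against 2 control means, 0 of the 12 probe sets passed by limma. Over all tested probe sets 0.898% passed at adjusted p under 0.05 (0.603% higher and 0.294% lower). At an unadjusted limma p under 0.05 there were 2 of the 12, beside 12 of the 49 other pathway genes described below. The share of all tested probe sets at that unadjusted level is not given here, so these 2 counts cannot be set against it. Numb was at 0.44 (1375536_at, SE 0.12, limma adjusted p = 0.185) and 0.41 (1384750_at, SE 0.08, limma adjusted p = 0.118). The first of these passed in a limma fit of the 10 arrays with passage as a replicate block and line as a random effect (adjusted p = 0.0371). That fit used 1 correlation within a line for all probe sets, estimated at 0.21. It thus counts the 2 passages of a line as partly separate samples, which the fit of line means does not. By line means, Jag1 was at -0.60 and Hey2 at -0.23 (limma adjusted p = 0.817 and 0.958), and the means of the control lines lay on either side of the clones in both genes. With the scrambled line left out, Jag1 was at -2.26 and Hey2 at -2.29, and with the untransfected line left out they were at 1.05 and 1.84. The differences between the clones passed the limma F test in 0 of the 12 probe sets and in 0.0327% of all tested. At an unadjusted p under 0.05 by this test there were 3 of the 12, beside 2 of the 49 other pathway genes. For this test, too, the share of all tested probe sets at the unadjusted level is not given here, so no excess can be read from these counts.

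The other genes of the pathway, 62 in a list of ligands, glycosyltransferases, endocytic regulators, proteases, nuclear cofactors and targets, were represented by 49 genes, each by its brightest probe set. Against the untransfected line 3 rose and 3 fell in the scrambled line (12.2%, beside 6.1% of all tested). Of the 2 genes called in each clone (4.08%, beside 4.38%, 3.52% and 3.63% of all tested in S1, S4 and S5), 1 rose and 1 fell in S1 and in S5, while both fell in S4. With the scrambled line as control 1 rose in S1 (2.04%, beside 4.19% of all tested), 0 in S4 (beside 3.64%) and 1 in S5 (2.04%, beside 3.44%), and 0 fell. All 6 clone arrays lay above all 4 control arrays in 4 of the 49, Ncstn, Kat2b, Hes6 and Tle1, a pattern found in 4.06% of all tested. They lay below in 1, Dll1 (3.44% of all). By line means 0 of the 49 were called by limma. No gene was called the same way against both control lines in any clone, so the rule for naming genes of this list named none, and the 6 described next were chosen after their values were seen. The median log2 difference of the 49 lay between -0.04 and -0.0012 in the 7 comparisons, beside -0.01 to 0 over all tested.

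Rbpj, the DNA-binding partner of the Notch intracellular domain, was at 3044 and 4501 intensity units in the untransfected line, 1876 and 2230 in the scrambled line and between 1798 and 2293 in the clones. It fell by 0.86 on the log2 scale in the scrambled line, 0.96 in S1 and 0.96 in S5 against the untransfected line (limma adjusted p = 0.0360, 0.0297 and 0.0328) and was at -0.72 in S4 (0.0830). Its 2 other probe sets had differences of -0.61 to -0.33 in the 4 lines and did not pass. Mib2, a ubiquitin ligase for Notch ligands, fell by 0.56 in the scrambled line and 0.70 in S4 (limma adjusted p = 0.0163 and 0.00850). It was at -0.43 in S1 and -0.42 in S5 (limma adjusted p = 0.0511 and 0.0564). Its other probe set was at -0.49, -0.55, -0.24 and -0.33 in the scrambled line, S4, S1 and S5 and did not pass.

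Adam10, the protease that makes the first cut in activated Notch, went the opposite way, from 95.1 and 106.1 in the untransfected line to 229 and 170.2 in the scrambled line and between 163 and 305 in the clones. It rose by 0.97 in the scrambled line, 1.35 in S1 and 1.33 in S5 (limma adjusted p = 0.0483, 0.0186 and 0.0227) and was at 0.89 in S4 (0.0858). Its second probe set differed by 1.01, 1.70, 1.77 and 1.29 in these lines (limma adjusted p = 0.0608, 0.0121, 0.0114 and 0.0369).

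Dtx4, a Deltex ubiquitin ligase that acts on Notch in endocytosis, took an order of its own. It was at 572 and 688 intensity units in the untransfected line, 222 and 253 in the scrambled line, and 782 and 667 (S1), 325 and 398 (S4) and 573 and 510 (S5) in the clones. It fell by 1.40 in the scrambled line and by 0.80 in S4 against the untransfected line (limma adjusted p = 0.00313 and 0.0346) and rose by 1.61 in S1 and 1.19 in S5 against the scrambled line (0.00151 and 0.00738). As for Hey2 and Notch1, S1 and S5 thus lay above S4. A second probe set of Dtx4 had the same signs but for S5 against the untransfected line, and did not pass. Dtx2, another Deltex, rose by 0.58 in the scrambled line (limma adjusted p = 0.0333). Hes3 was at the floor on both untransfected arrays and at 28.4 and 25.9 in the scrambled line, which was at least 1.35-fold higher (limma adjusted p = 0.0465).

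**Figure D4:**
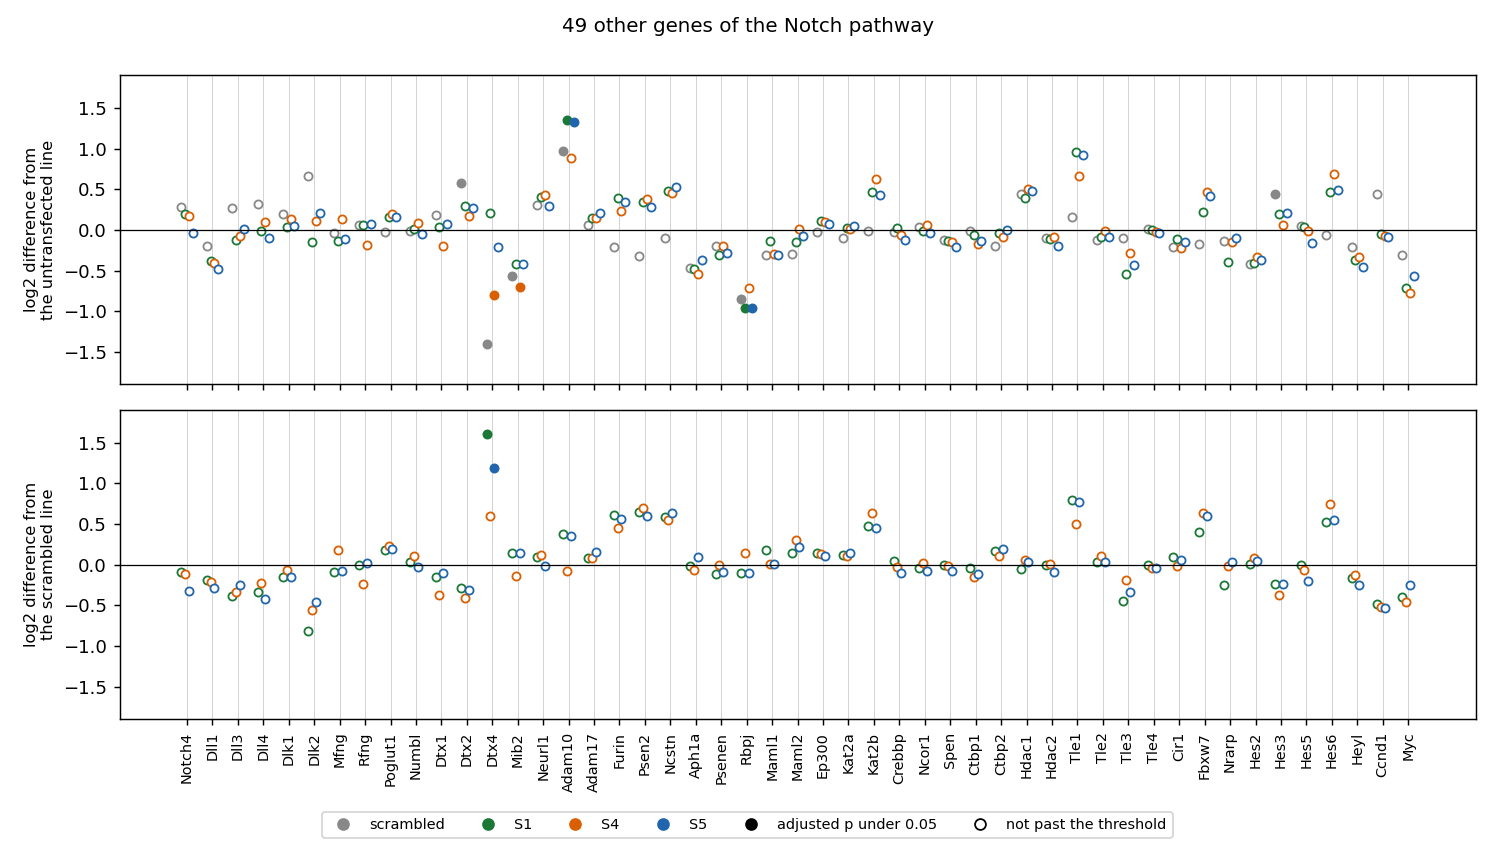
Log2 difference of each line from the untransfected line (top) and of each clone from the scrambled line (bottom) for the 49 other listed genes of the Notch pathway (x axis). Filled points passed at limma adjusted p under 0.05. Adam10 stands above 0 and Rbpj below it in the top panel, and Dtx4 in S1 and S5 is filled in the bottom panel.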

How the data were processed

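Biotin-labelled RNA was hybridised to Affymetrix arrays, per the labels' protocols. The authors deposited intensity values on a linear scale, computed by RMA according to the submitters' processing notes. Where the floor of 20 comes from, which held 14.6% of the values, was not stated. Log2 was taken of these values. Array controls (57) and probe sets at the floor on every array (3522) were not tested. Symbols came from the platform annotation, and all 12 probe sets matched RefSeq's gene table (GRCr8) by gene identifier and symbol.

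Differences were tested with limma (version 3.58.1, R 4.3.3) and adjusted by Benjamini-Hochberg over 27520 probe sets, with 0.05 as threshold. Single lines were compared in 1 fit of the 10 arrays (5 residual degrees of freedom) and the clones together in a fit of the 5 line means (3 degrees). The fits were run on simulated data with independent noise on each array. That simulation held no passage change shared between lines, so it cannot show how the fits behave with one. Changes between passages correlated above 0.1 in all 10 pairs of lines (0.136 to 0.648), so passages pair the samples. The reported fits have no passage term, and the replicate block was an alternative. With the block, probe sets called rose to 2439, 1904 and 2103 for S1, S4 and S5 against the untransfected line, 2129, 1906 and 1845 against the scrambled line, and 3602 for the scrambled line.

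The rule for named genes took all 12 probe sets, any pathway genes called the same way against both control lines, and the 5 genes most correlated with each of the 2 probe sets of widest range. Members, lists and tests were chosen with earlier results of these data known.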

Additional observations from a re-analysis of the deposited data

How the results depend on the processing

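Of the 1854 values of the 12 probe sets under alternatives, 1620 kept direction and side of the threshold, 164 lost their call, 26 gained one and 44 changed sign, 0 of these 44 among the 31 called values. The causes were not tested. In the order S1, S4 and S5 against the untransfected line, the same against the scrambled line, and scrambled against untransfected, no filter on floor values gave 602, 503, 526, 616, 574, 467 and 1014 calls over all probe sets. Of the 12 it called 3 for S5 against the untransfected line and 0 for S1 and S5 against the scrambled line, and it took S1 and S4 against the untransfected line from 6 to 4 and from 8 to 7. The passage number as a replicate block gave 2439, 1904, 2103, 2129, 1906, 1845 and 3602 calls, ended no call among the 12, and added those given beside Hey2, Notch2, Notch1 and Numb. Fitting only the arrays of the lines compared gave 4, 2, 0, 0, 0, 8 and 13 calls, 0 of them among the 12. With log2(value + 16), 0 of the 12 were called for S5 against the scrambled line.

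Leaving out 1 array at a time gave 216 to 2357, 257 to 1918, 180 to 2136, 243 to 1206, 309 to 1095, 228 to 958 and 608 to 3224 calls in that order, and 0 to 5, 3 to 8, 0 to 6, 0 to 3, 0 to 0, 0 to 1 and 5 to 8 of the 12. The same turned uncalled values around 0. For S1 against untransfected, it took Jag2 from -0.048 to 0.080 and Lfng from -0.022 to 0.19. For S4 against untransfected, it took Jag2 from -0.24 to 0.0053 and Lfng from -0.16 to 0.10. For S5 against untransfected, it took Jag2 from -0.011 to 0.029 and Lfng from -0.044 to 0.13. For S1 against scrambled, it took Hey1 from -0.28 to 0.10, Notch2 from -0.052 to 0.055 and Jag2 from -0.0057 to 0.12. For S4 against scrambled, it took Notch3 from -0.082 to 0.11, Notch1 1390426_at from -0.16 to 0.079, Notch1 1371491_at from -0.28 to 0.12, Hey1 from -0.37 to 0.021 and Jag2 from -0.20 to 0.048. For S5 against scrambled, it took Notch3 from -0.084 to 0.11 and Notch2 from -0.20 to 0.33. For scrambled against untransfected, it took Numb 1384750_at from -0.0087 to 0.36. For clones against the control lines, it took Hey2 from -0.53 to 0.076, Jag2 from -0.051 to 0.031 and Hes1 from -0.032 to 0.10. Quantile normalization took S1 against the untransfected line from 6 to 4 of the 12, ended the call of Notch1 1390426_at in S5, and turned Notch1 1390426_at in S4 against the scrambled line to 0.022 and Notch3 in S5 to -0.0032.

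For the clones against the control lines by line means, no filter gave 14 calls, the replicate block 1205 (1 of the 12), and 1 array left out 77 to 334 (0 to 0 of the 12). In the fit of line means, leaving out clone S1, S4 or S5 gave 0, 2 and 0 calls. Without S4, Jag2 was at 0.034, Hey2 at 0.37 and Hes1 at -0.0024. In 2 alternatives added after seeing the data, the lone control line is assumed to vary like the clones. Without the untransfected line there were 1693 calls, 0 of the 12, and Jag1 was at 1.05, Notch3 at 0.049, Jag2 at 0.012, Notch1 at 0.31 and 0.42 and Hey2 at 1.84. Without the scrambled line there were 2968 calls, 5 of the 12 (Jag1, Notch2, Notch3, Hey1 and Numb 1384750_at), with Lfng at 0.033 and Hes1 at -0.37. For the differences between clones, no filter gave 4 calls, the block 25, an intensity trend 15, and 1 array left out 4 to 8 (0 to 0 of the 12). Values near the floor of 20, such as Jag2, Hey1 and Hey2 in the scrambled line, limit the differences that could be measured there.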
